A study of Mus musculus with 2 samples.

Results

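Described here are 9 genes that leukocytes and vessels use when leukocytes enter brain tissue and stay there: the integrin alpha subunits Itga4, Itgal, Itgam and Itgax, the beta subunits Itgb1, Itgb2 and Itgb7, and the ligands Icam1 and Vcam1. They were chosen by symbol, and each matched 1 of the 31053 genes of the count tables. Their unique molecular identifiers (UMIs, 1 per captured RNA molecule) were summed over barcodes of 1000 or more UMIs whose mitochondrial share did not exceed 17%. There were 10107 such barcodes in WT and 7604 in CD169-DTR, 17711 in all.

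Integrins are cell-surface dimers of an alpha and a beta chain. Itgal, Itgam and Itgax each pair with Itgb2, giving LFA-1, Mac-1 and CD11c/CD18, which bind Icam1 among other ligands. Itga4 pairs with Itgb1, giving VLA-4, a receptor for Vcam1 and fibronectin, or with Itgb7, giving a receptor for Madcam1. Inflamed endothelium displays Icam1 and Vcam1, on which rolling leukocytes arrest before they cross the vessel wall, and microglia, the resident macrophages of the brain, carry Mac-1 themselves.

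Both groups were male C57BL/6 mice of 8 to 12 weeks that were given 100000 GL261 mouse glioma cells in the brain, diphtheria toxin at 40 ng per g on days -1 and 4, and were killed on day 10. CD169-DTR mice were heterozygous for an allele in which the diphtheria toxin receptor replaces Siglec1 (CD169), which leaves 1 intact copy, so the toxin could act on cells that use the locus. WT mice lacked the allele and received the same toxin. Living CD45.2+ cells were sorted, and 3 mice were pooled into 1 droplet library of 3′ RNA ends per group. With 1 library per group there was no test between the groups. Intervals in parentheses are exact 95% intervals that cover counting error only, and differences between mice, sorts and library preparations cannot be told apart from the genotype.

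The libraries held 101808996 UMIs in WT and 84065489 in CD169-DTR, with medians of 7776 and 8099.5 UMIs per kept barcode, and 21 kept barcodes had the same sequence in both. Siglec1, the targeted gene, was at 17.8 CPM in the WT sort, a scale on which 10 CPM is 1 UMI of the gene in 100000, and 5.46 in the CD169-DTR sort, and at 38.0 and 12.1 in macrophages. Clustering without the 9 genes gave 30 clusters, of which 26 were named by markers into 14 classes. Microglia made up 44.6% of WT and 66.5% of CD169-DTR barcodes, and macrophages 23.2% and 9.74%. Immune classes other than microglia are called infiltrating below, although cells inside vessels cannot be told apart from cells in the tissue. A cluster of 293 WT and 392 CD169-DTR barcodes with microglial markers was led by hemoglobin genes and stayed unnamed. Brain endothelial cells, pericytes, fibroblasts and choroid plexus cells were present in spite of the CD45.2 gate.

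On GRCm38, the assembly behind mm10, Itgal (chr7:127296260-127335138), Itgam (chr7:128062640-128118491) and Itgax (chr7:128129547-128150657) lie on the plus strand of chromosome 7. Itga4 lies at chr2:79255426-79333123, Itgb1 at chr8:128685654-128733200, Itgb2 at chr10:77530252-77565708 and Icam1 at chr9:21015985-21028817, also on the plus strand. Itgb7 (chr15:102215995-102231944) and Vcam1 (chr3:116109949-116129688) lie on the minus strand. All are protein-coding.

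Promoter windows from 250 bases before to 50 bases after the start site were read from RefSeq (build GRCm38.p6), in which Itga4, Itgam, Itgax, Itgb1, Itgb7 and Icam1 were matched and Itgal, Itgb2 and Vcam1 were not. Shown are Icam1, Itgam and Itgax. Their levels, and those of Vcam1, which had no matched window, separated the microglial states described further on. Capitals mark matches on either strand to GGAAATTCC (NF-kB-like), TTCCNGGAA (GAS-like) and GAGGAA (an ETS purine box), and all windows are on the plus strand.
Icam1 chr9:21015690-21015989: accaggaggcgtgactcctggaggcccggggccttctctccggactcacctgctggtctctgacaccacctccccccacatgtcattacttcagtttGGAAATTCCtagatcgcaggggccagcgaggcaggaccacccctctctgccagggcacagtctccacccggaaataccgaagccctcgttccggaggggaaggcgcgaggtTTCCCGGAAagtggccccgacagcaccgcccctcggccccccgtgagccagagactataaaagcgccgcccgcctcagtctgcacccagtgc
Itgam chr7:128062390-128062689: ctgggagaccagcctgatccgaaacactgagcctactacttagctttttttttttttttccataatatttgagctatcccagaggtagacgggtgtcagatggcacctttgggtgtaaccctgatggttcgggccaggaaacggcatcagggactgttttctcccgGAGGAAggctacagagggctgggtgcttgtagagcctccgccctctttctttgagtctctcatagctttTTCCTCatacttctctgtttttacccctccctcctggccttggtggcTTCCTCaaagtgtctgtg
Itgax chr7:128129300-128129599: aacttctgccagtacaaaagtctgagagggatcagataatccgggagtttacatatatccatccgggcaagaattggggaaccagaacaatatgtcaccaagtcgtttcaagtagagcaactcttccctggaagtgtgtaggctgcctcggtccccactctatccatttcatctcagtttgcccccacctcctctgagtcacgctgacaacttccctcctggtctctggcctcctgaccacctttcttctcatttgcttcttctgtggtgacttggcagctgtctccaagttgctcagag
The Icam1 window held the NF-kB-like letters once, from position -153 relative to the start site, and the GAS-like letters once, from position -42. Of all 32851 windows, 0.317% held the NF-kB-like and 1.15% the GAS-like letters. The Itgam window held 3 matches to GAGGAA, letters found in 28.3% of all windows, and the Itgax window held none of the motifs. These are matches of letters and no measurement of binding.

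Over the whole sort, Itga4, Itgal and Itgb7 were counted mostly in infiltrating classes, Itgam, Itgb2 and Icam1 mostly in microglia, and Vcam1 mostly in microglia and non-immune classes. Infiltrating classes held 94.8% of Itgb7 UMIs in WT and 94.9% in CD169-DTR, 89.7% and 79.4% of Itga4 UMIs, and 87.4% and 80.2% of Itgal UMIs. Their share of all UMIs was 43.9% and 22.3%. Microglia held 79.5% and 86.9% of Itgam UMIs, against 44.3% and 64.1% of all UMIs. Non-immune classes held 44.4% and 36.8% of Vcam1 UMIs, against 8.97% and 8.88% of all UMIs.

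**Figure D1:**
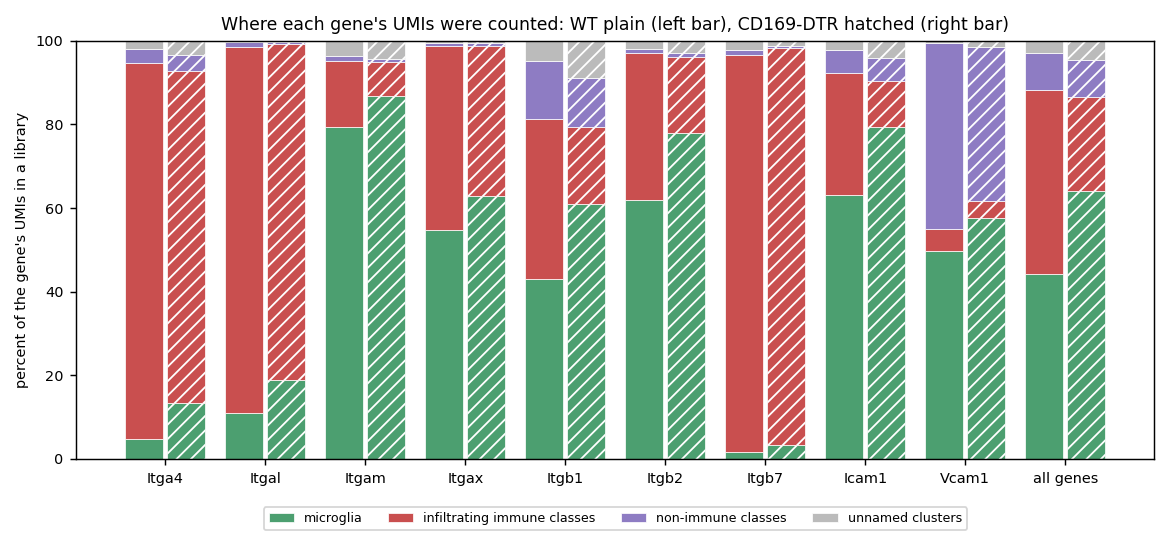
Percent of each gene's UMIs counted in microglia, infiltrating immune classes, non-immune classes and unnamed clusters, in WT and CD169-DTR, with all genes together for comparison. Itga4, Itgal and Itgb7 sat mostly in infiltrating classes in both libraries, and Itgam mostly in microglia (79.5% and 86.9%).

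The make-up of the sort carried into the totals. Itgb7 was at 82.8 CPM in the WT sort and 33.1 in the CD169-DTR sort, a log2 ratio of WT over CD169-DTR of 1.32 (1.26 to 1.39). Itga4 was at 62.5 and 35.2, a log2 ratio of 0.83 (0.76 to 0.89). With the CD169-DTR class levels weighted by the WT class shares, the ratio was 0.15 for Itgb7 and -0.01 for Itga4, so the Itga4 ratio turned sign and was close to 0. Itgam was higher in the CD169-DTR sort, at 454 against 320.5, a log2 ratio of -0.50 (-0.52 to -0.48) that was -0.13 at WT class shares. The log2 ratio over the sort was below 0.5 in size for the other 6 members: 0.38 for Itgal, 0.42 for Itgax, -0.11 for Itgb1, -0.28 for Itgb2, -0.29 for Icam1 and 0.12 for Vcam1. At WT class shares the Itgal ratio also turned sign, to -0.24. The others were then 0.16 for Itgax, -0.10 for Itgb1, -0.13 for Itgb2, -0.04 for Icam1 and 0.35 for Vcam1.

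Levels within classes are given in CPM, relative to all UMIs of the class, WT first and CD169-DTR second. They compare classes and libraries for 1 gene at a time and not genes with each other.

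Itga4, the alpha chain of VLA-4, was low in microglia, at 6.88 (6.11 to 7.73) and 7.39 (6.66 to 8.19). Migratory dendritic cells held most in both libraries, at 296 (271 to 324) and 287 (222 to 365), the second value resting on 66 UMIs. B cells held 181 and 169, T cells 147 and 177, NK cells 139 and 203, macrophages 117 and 119.9 and Cd209a dendritic cells 106 and 91.7. In WT the intervals of T cells, NK cells, plasmacytoid dendritic cells and conventional dendritic cells 1 overlapped. Pericytes also held Itga4, at 118 and 155, and brain endothelial cells held 33.6 and 17.3.

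Itgal, the alpha chain of LFA-1, was likewise low in microglia, at 9.52 and 8.59. NK cells held most, at 195 (177 to 215) and 233 (197 to 273), and granulocytes followed at 168 and 228 with intervals that overlapped those of NK cells. T cells held 133 and 142 and macrophages 87.0 and 115. Cd209a dendritic cells held 18.4 and 18.5, and WT pericytes had 0 Itgal UMIs, which allows up to 8.43 CPM.

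Itgam, the alpha chain of Mac-1, was highest in microglia, at 574 (567 to 582) and 614 (607 to 621). Granulocytes held 334 and 429.8, macrophages 159.6 and 183, NK cells 108 and 172 and conventional dendritic cells 1 26.9 and 35.8. Itgam was also the member with most UMIs in barcodes of 10 to 100 UMIs, a measure of free RNA, at 275 and 420.2 CPM. With free RNA estimated at 166 and 104 UMIs per barcode, it would give 45.5 and 43.6 Itgam UMIs per 1000 barcodes.

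Itgax, the alpha chain of CD11c/CD18, was highest in Cd209a dendritic cells, at 107 and 128, and in conventional dendritic cells 1, at 99.9 and 106, with overlapping intervals. NK cells held 79.1 and 90.1. Microglia held 80.2 (77.5 to 82.9) and 47.5 (45.7 to 49.5), and macrophages 54.1 (50.8 to 57.5) and 80.9 (75.4 to 86.8), so microglia were above macrophages in WT and below them in CD169-DTR. T cells held 15.9 and 11.2.

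Itgb2, the beta chain shared by Itgal, Itgam and Itgax, was highest in microglia in WT, at 307 (302 to 313), with granulocytes at 284 (245 to 328). In CD169-DTR granulocytes were above microglia, at 383 (344 to 426) and 324 (319 to 329). Macrophages held 219.8 and 239.9, NK cells 206 and 253, T cells 152 and 170.3 and Cd209a dendritic cells 133 and 163. Migratory dendritic cells, which led for Itga4, held only 27.8 and 34.8.

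Itgb7, the other partner of Itga4, was at 3.07 (2.56 to 3.65) and 1.68 (1.34 to 2.08) in microglia. T cells held 289 and 292, conventional dendritic cells 1 281 and 353, Cd209a dendritic cells 267 and 241 and NK cells 226 and 235. Macrophages were lower, at 116 and 82.4, and granulocytes held 25.8 and 12.2. Migratory dendritic cells held 27.8 and 65.3, so the class with most Itga4 was not among those with most Itgb7.

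Itgb1, which also pairs with many alpha chains of non-immune cells, was highest in pericytes, at 759 and 647. Fibroblasts held 378 and 352 and brain endothelial cells 327 and 350.3. Among immune classes NK cells held most, at 428 (401 to 457) and 384 (337 to 435). Migratory dendritic cells held 296 and 244, T cells 199.9 and 235, microglia 155 and 164 and macrophages 107 and 134.

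Icam1, the ligand of the Itgb2 integrins, was highest in granulocytes in WT, at 471 (419.7 to 526), followed by microglia at 298 (293 to 303). In CD169-DTR microglia, at 317 (312 to 322), and granulocytes, at 311 (276 to 349.6), had overlapping intervals. Migratory dendritic cells held 248 and 239, brain endothelial cells 210.2 and 257 and macrophages 135 and 117. Microglia as a class thus held more Icam1 than the endothelium in both libraries. This did not hold for every microglial cluster described further on, of which the lowest held 188 and 201.

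Vcam1, the ligand of VLA-4, was highest in fibroblasts, at 782 and 365 from 17 and 18 cells, of which 64.7% and 11.1% had a doublet score among the highest 6% of their library. Brain endothelial cells held 297 (281 to 313) and 227 (211 to 244), and choroid plexus cells 156 and 148. Microglia held 56.9 and 42.0, macrophages 8.92 and 12.4 and T cells 1.90 and 3.12. As a class, microglia thus held more Vcam1 than macrophages in both libraries. The microglial cluster with least Vcam1, described further on, held 10.9 and 13.5, close to the macrophage class. In both libraries that was below the macrophage cluster with most Vcam1.

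**Figure D2:**
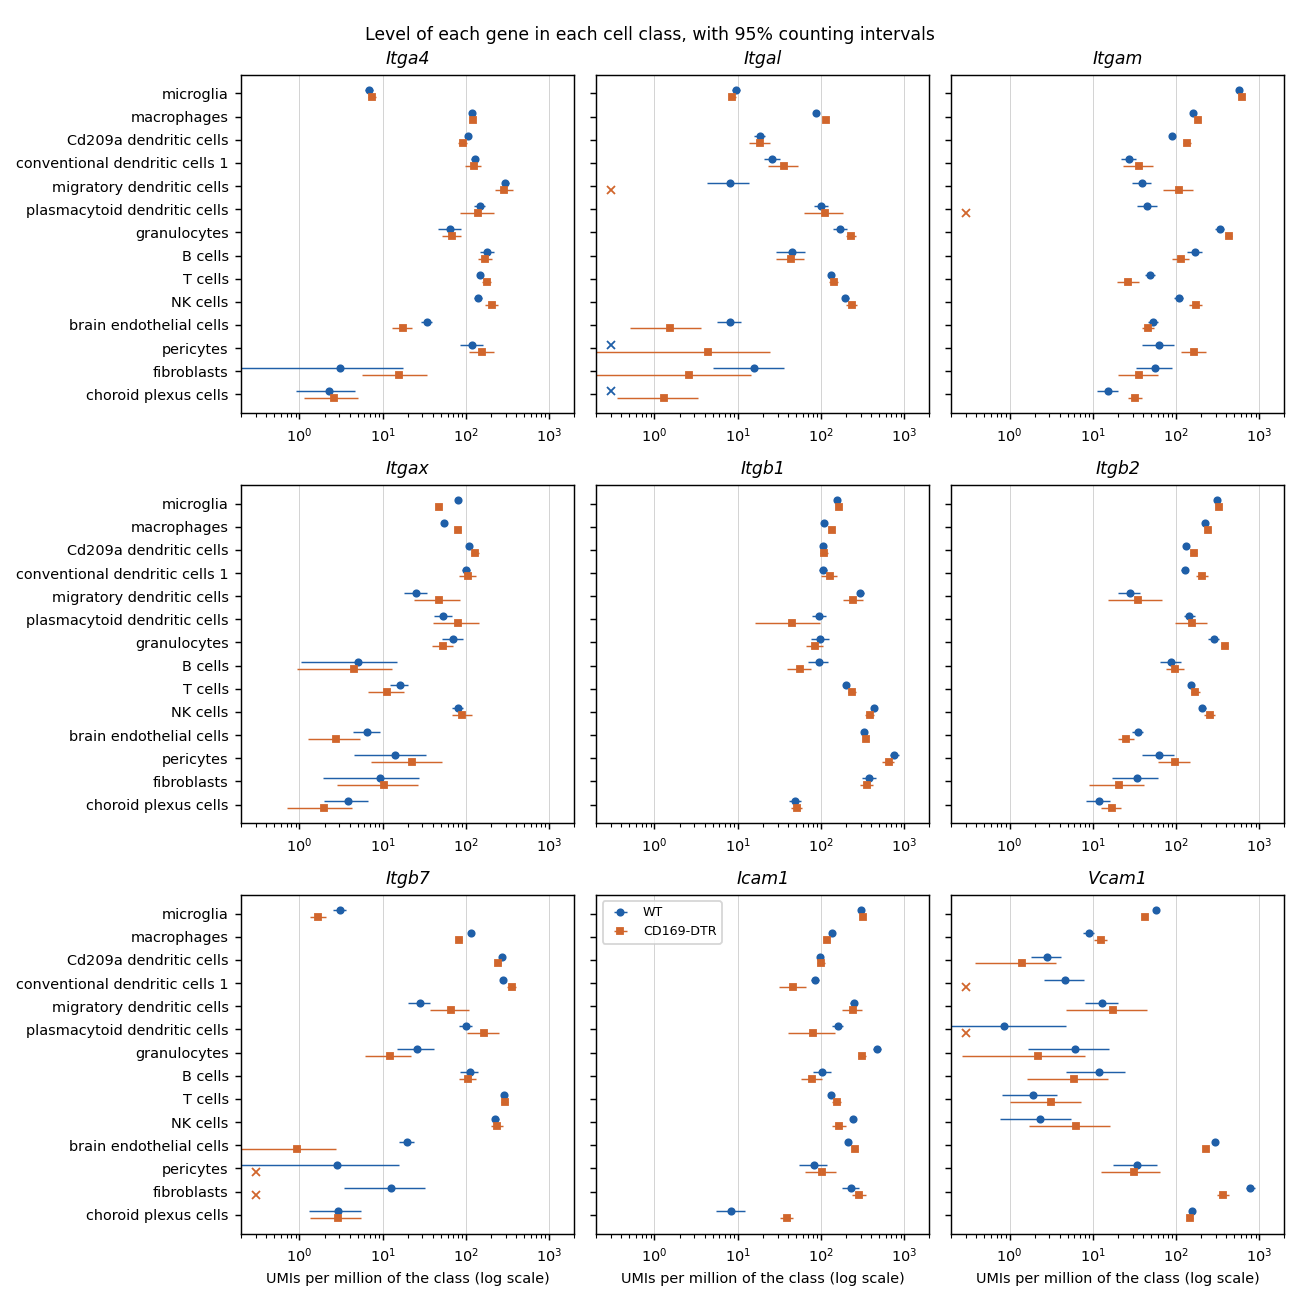
Level of each gene in the 14 named classes in WT and CD169-DTR, in CPM of the class on a log axis, with exact 95% counting intervals; an x at 0.3 marks 0 UMIs. Itga4 and Itgb7 lay at or below 7.39 in microglia and at or above 82.4 in macrophages, T cells and NK cells.

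The chains of a dimer were also counted within single cells. Each cell was thinned to 4500 UMIs, which left out 574 of 4510 WT and 519 of 5056 CD169-DTR microglia. Itgam and Itgb2 were found together in 61.6% (60.02% to 63.1%) of microglia in WT and 62.0% (60.6% to 63.4%) in CD169-DTR, and in 77.9% and 80.8% without thinning. Choroid plexus cells, which should lack both, showed the pair in 1.39% and 1.83%, with median depths of 14512 and 12530 UMIs against 7848 and 8104 in microglia. In macrophages the pair was found in 24.3% (22.3% to 26.5%) and 32.2% (28.7% to 35.9%), below microglia in both libraries.

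VLA-4, read as Itga4 with Itgb1, was found in 51.8% (43.2% to 60.3%) of WT migratory dendritic cells (69.8% unthinned), 28.3% of WT NK cells (40.8% unthinned) and 21.4% of WT T cells (38.2% unthinned). In microglia it was found in 1.30% and 1.12% (3.77% and 4.11% unthinned). Itga4 with Itgb7 was found in 17.9% (14.1% to 22.2%) of T cells in WT and 30.1% (23.4% to 37.5%) in CD169-DTR, against 0.0762% and 0.0661% of microglia. Without thinning the T cell shares were 35.9% and 39.0%, a narrower gap between the libraries. LFA-1, read as Itgal with Itgb2, was found in 27.5% and 28.2% of NK cells (43.2% and 50% unthinned), and in 2.57% and 2.29% of microglia.

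**Figure D3:**
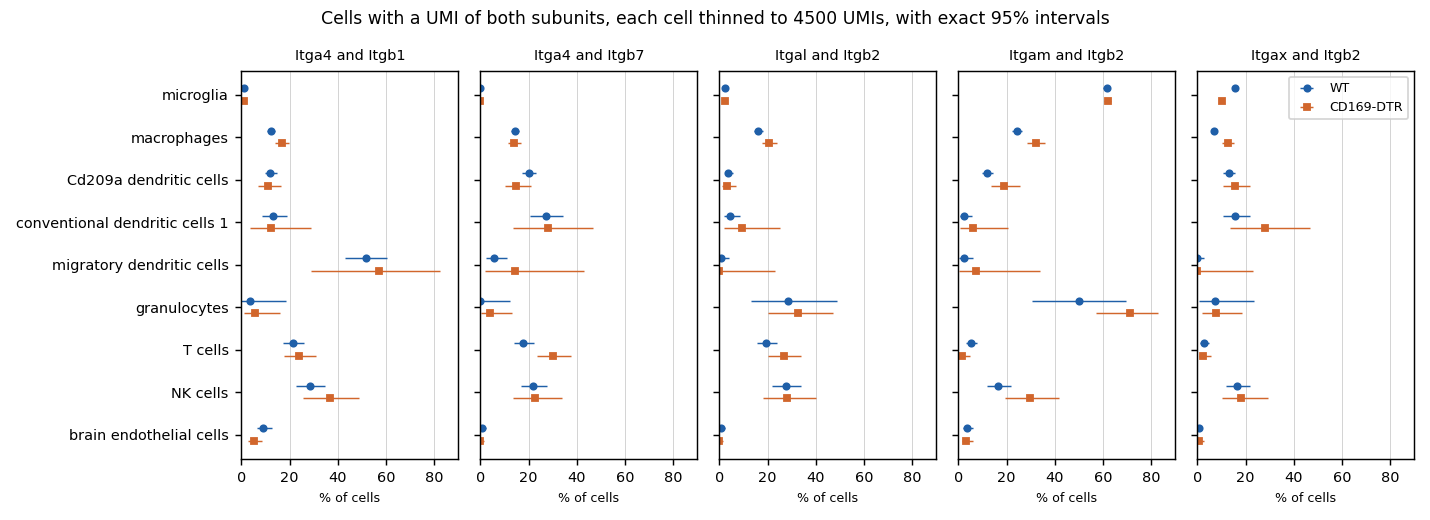
Percent of cells with at least 1 UMI of both chains of a dimer after thinning each cell to 4500 UMIs, by class, in WT and CD169-DTR, with exact 95% intervals. Itgam with Itgb2 stood at 61.6% and 62.0% in microglia, and Itga4 with Itgb1 at 51.8% and 57.1% in migratory dendritic cells.

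Microglia fell into 9 clusters, named here by their leading genes, that differed in Itgam, Itgax, Icam1 and Vcam1. Itgax was lowest in the cluster led by P2ry12, Slc2a5 and Sox4, where P2ry12 marks undisturbed microglia, at 12.7 and 13.02. It was at 119.5 and 65.1 in the cluster led by Lpl, Cst7 and C4b, and highest in the cluster led by Spp1, Igf1 and Cd5l, at 163 (151 to 176) and 88.8 (80.1 to 98.3). Itgam was higher in the P2ry12-led cluster, at 745 and 746, than in the Spp1-led cluster, at 346 and 491, the opposite order to Itgax.

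Icam1 was at 188 and 201 in the P2ry12-led cluster and highest in the cluster led by Il1a, Atf3 and Ccl4, at 621 (596 to 647) and 726 (704 to 748). The cluster led by Cxcl13, Cxcl10 and Ccl12, chemokines, was second for Icam1, at 454 and 495. That cluster was highest for Vcam1, at 146 (136 to 157) and 119 (108 to 130.2), against 10.9 and 13.5 in the P2ry12-led cluster. Itga4 stayed between 3.05 and 14.1 in every microglial cluster of either library.

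**Figure D4:**
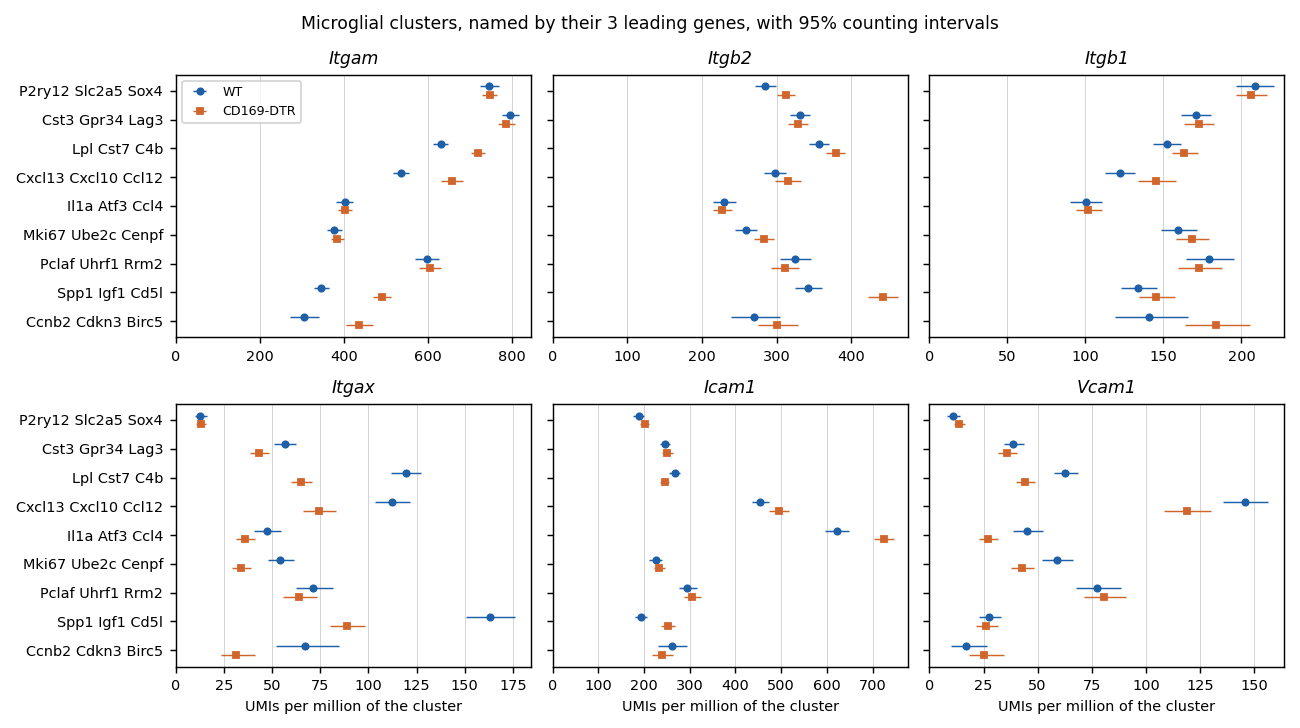
Levels of members in the 9 microglial clusters, named by their leading genes, in CPM of the cluster with exact 95% counting intervals, in WT and CD169-DTR. Icam1 was highest in the Il1a-led cluster (621 and 726), Vcam1 in the Cxcl13-led cluster (146 and 119) and Itgax in the Spp1-led cluster (163 and 88.8).

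Macrophages fell into 4 clusters that differed in the chains of vessel attachment. The cluster led by Hp, Ear2 and F13a1 (242 WT and 158 CD169-DTR cells) was highest for Itga4, at 316 and 435, Itgal, at 340.2 and 499.7, and Itgb7, at 274 and 210.4. Itgal was among the 10 leading genes of that cluster, so its level there describes the cluster. The cluster led by Plac8, Ly6c2 and Ms4a4c, with the monocyte marker Ly6c2, held 149 and 133 of Itga4, 94.04 and 94.03 of Itgal and 133 and 101 of Itgb7. The cluster led by Gpnmb, Fabp5 and Ms4a7 held less, with 55.3 and 51.5 of Itga4, 27.2 and 42.6 of Itgal and 59.95 and 40.3 of Itgb7, but was highest for Itgax, at 90.5 and 105.

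Macrophages with a UMI of Siglec1, the gene of the targeted locus, held less Itgal than macrophages without one in both libraries and at each depth read, while the sizes for Itgb7 and Itga4 depended on depth. Only the members were thinned, and a Siglec1 UMI was looked for at full depth, so this call still depends on depth. At 4500 UMIs per cell, WT had 398 such macrophages and 1239 without, with full median depths of 9306.5 and 9009 UMIs. Itgal was at 38.5 with and 115 without a Siglec1 UMI, a log2 ratio of -1.58 (-1.96 to -1.22). The log2 ratio was -0.79 (-1.07 to -0.52) for Itgb7 and -0.35 (-0.59 to -0.11) for Itga4. Itgb2 was at -0.30 (-0.48 to -0.12), and the intervals of Itgam, Itgax, Itgb1, Icam1 and Vcam1 included 0. In CD169-DTR, with 90 and 568 macrophages, the ratios were -2.46 (-3.38 to -1.67) for Itgal, -1.62 (-2.55 to -0.82) for Itgb7 and -1.64 (-2.33 to -1.02) for Itga4. Without thinning these were -1.41 (-1.76 to -1.08), -1.07 (-1.45 to -0.72) and -0.83 (-1.11 to -0.55), and in WT -1.44 (-1.67 to -1.21), -0.49 (-0.64 to -0.33) and -0.34 (-0.49 to -0.19). At 2000 UMIs per cell the interval of Itga4 included 0 in both libraries, at -0.11 (-0.40 to 0.17) for WT and -0.53 (-1.22 to 0.09) for CD169-DTR. That of Itgb7 did so in CD169-DTR, at -0.91 (-2.01 to 0.02), and not in WT, at -0.42 (-0.76 to -0.09). Itgb2 in WT was at -0.08 (-0.30 to 0.14) there, while Itgal stayed below 0, at -1.56 (-2.05 to -1.10) and -2.37 (-3.70 to -1.30). At 4500 UMIs Itgax in CD169-DTR was at -0.94, and Vcam1 at 1.66 (0.23 to 2.97) on 8 and 16 UMIs, which was -0.0245 without thinning. Median depth in CD169-DTR was 16698.0 with and 12236.5 without a Siglec1 UMI, and its part in these values was not tested. The macrophage clusters differed in Itgal, Itga4 and Itgb7. The split was not made within them, and the part of cluster make-up was not tested. In WT microglia the Itgal ratio was positive, at 0.95 (0.36 to 1.51) for 4500 UMIs and 0.65 (0.31 to 0.98) without thinning. At 2000 UMIs it was 0.28 (-0.75 to 1.19). For CD169-DTR microglia the Itgal ratio was 0.01 (-1.34 to 1.09), 0.95 (0.52 to 1.36) and 1.72 (0.51 to 2.75), in that order. A Siglec1 UMI is a sparse mark, so cells without one can include cells that use the gene.

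T and NK cells were clustered again into 7 clusters. In the cluster led by Cd8b1, Cd8a and Gzmk (92 WT and 58 CD169-DTR cells), CD8 T cells by their markers, Itga4 was at 195 and 226, Itgal at 181 and 228 and Itgam at 11.9 and 6.58. Itga4 and Itgal were higher there than in T cells as a whole, and Itgam lower. In the NK cell cluster led by Gzma, Klra4 and Klra8 (191 WT and 67 CD169-DTR cells) Itgb1 was at 477 and 398 and Itgal at 223 and 244. The cluster led by Tnfrsf4, Ctla4 and Foxp3 (27 WT and 24 CD169-DTR cells) had the highest Itgb7 of the 7 in both libraries, at 718 and 619.

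Between the libraries, a member was counted as past the fold where its log2 ratio of WT over CD169-DTR within a class was at least 0.5 in size, with at least 100 UMIs over both libraries. Over the 7 classes compared, 6 ratios of members were past the fold toward WT and 4 toward CD169-DTR. None reached a log2 ratio of 1. A p-value cannot be given, so each count stands beside the percent of all genes past the same fold.

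In microglia 2 of 9 members, Itgax and Itgb7, were higher in WT, where 2.18% of 11577 genes were, and none of the 9 were higher in CD169-DTR, where 2.07% of genes were. The Itgax ratio was 0.75 (0.68 to 0.83), from 3343 and 2379 UMIs. It was past the fold toward WT in 5 of 9 microglial clusters and toward CD169-DTR in none, but was -0.03 in the P2ry12-led cluster, where Itgax was low. The Itgb7 ratio was 0.87 (0.46 to 1.29) on 128 and 84 UMIs. Summed NK cell markers in microglia were at 7.68 and 1.60 CPM, with 8 of 8 markers detected in WT and all but Klra8 in CD169-DTR. Markers of other classes rich in Itgb7 differed less, at 24.6 and 21.3 for T cells and 16.5 and 14.8 for Cd209a dendritic cells. The part of these lists was not tested. With free RNA subtracted the Itgb7 ratio was 0.49, inside the fold. Tumor-associated macrophage markers in microglia were at 1362 and 997 and monocyte markers at 250.2 and 130.3, each with 8 of 8 detected, and their part in the Itgax value was not tested. Itgam (-0.10), Itgb2 (-0.08) and Icam1 (-0.09) lay close to the median of all genes, -0.04, and Vcam1 was at 0.44.

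In macrophages Itgax went the other way, at -0.58 (-0.72 to -0.44), and was the only 1 of 9 members past the fold. In this class 6.51% of all genes were higher in CD169-DTR and 7.54% in WT. Itgax was past the fold toward CD169-DTR in the Plac8-led cluster (-0.90) and the Clec4e-led cluster (-0.66), and was -0.22 in the Gpnmb-led cluster, where it was highest. Weighting the clusters alike in both libraries brought the macrophage ratio to -0.37, below the fold. The summed monocyte markers of macrophages were at 7481 and 3844 CPM and the tumor-associated macrophage markers at 19318 and 22257, each with 8 of 8 detected, so the make-up of the class differed between the libraries. Within the Gpnmb-led cluster Itgal was at -0.65 and Itgb7 at 0.57. Itgb7 (0.49), Vcam1 (-0.48) and Itgal (-0.41) lay just inside the fold. They moved with the processing: Itgal was -1.07 with the same weight per cell, and Vcam1 was -0.82 without the highest doublet scores, within a range of -0.82 to -0.01 over the alternatives.

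In Cd209a dendritic cells 1 of 8 members was past the fold, Itgam at -0.62 (-0.80 to -0.44), higher in CD169-DTR, as were 7.5% of all genes; 9.4% were higher in WT. Tumor-associated macrophage markers in these cells were at 3713 and 6255 CPM, higher in the same library as Itgam. Monocyte markers went the other way, at 5988 and 3142, and each list had 8 of 8 detected in both libraries. The part of either list was not tested. Without the highest doublet scores the Itgam ratio was -0.94. In T cells Itgam was the 1 of 7 members past the fold, higher in WT at 0.88 (0.40 to 1.38), as were 14.1% of all genes, with 3.93% higher in CD169-DTR. Tumor-associated macrophage markers in T cells were at 1016 and 206, with only Mmp12 at 0 and only in CD169-DTR. They were higher in the same library as Itgam, and their part was not tested. The median of all genes in T cells was 0.10, and Itga4, Itgal, Itgb1, Itgb2, Itgb7 and Icam1 lay between -0.26 and -0.02.

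In NK cells 3 of 8 members were past the fold. Icam1 was higher in WT, at 0.55 (0.24 to 0.86), as were 9.43% of all genes. Itga4, at -0.55 (-0.85 to -0.24), and Itgam, at -0.68 (-1.01 to -0.34), were higher in CD169-DTR, as were 5.38% of all genes, on 131 and 111 UMIs in the 86 CD169-DTR cells. Leaving out the cell with most Itgam UMIs in each library brought the Itgam ratio to -0.42. Without the highest doublet scores it was -1.34, and with the same weight per cell -1.06. Itga4 came inside the fold, at -0.31, with the same weight per cell, and Icam1, at 0.48, with barcodes of 2000 or more UMIs. In the joint clustering of T and NK cells, 140 WT and 20 CD169-DTR cells fell in a cluster led by Gzmc, S100a9, S100a8, Lyz2, Lyz1, P2ry12, Apoe, Cst3, C1qa and C1qb. All but Gzmc, a granzyme, are genes of myeloid cells or microglia, so it is given no name here, and its Itgam was at 157 and 287. In the Gzma-led NK cell cluster Itgam was at 59.5 and 122. In NK cells as a class tumor-associated macrophage markers were at 1139 and 253 CPM, with Mmp12 at 0 in WT and Ms4a7, Mmp12 and Thbs1 at 0 in CD169-DTR, and monocyte markers at 1419 and 758, with Chil3, F10 and Vcan at 0 in CD169-DTR. Microglial markers were at 2576 and 2150. These lists were higher in WT, as was Icam1, while Itgam and Itga4 were higher in CD169-DTR. The part of the lists was not tested.

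In granulocytes 1 of 6 members was past the fold, Icam1 at 0.60 (0.36 to 0.84), higher in WT, as were 14.7% of all genes. With the same weight per cell it was 0.39, inside the fold. The share of genes higher in CD169-DTR was the same, 14.7%, and summed granulocyte markers were at 66281 and 121104 CPM, so the class itself differed in its marker level.

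**Figure D5:**
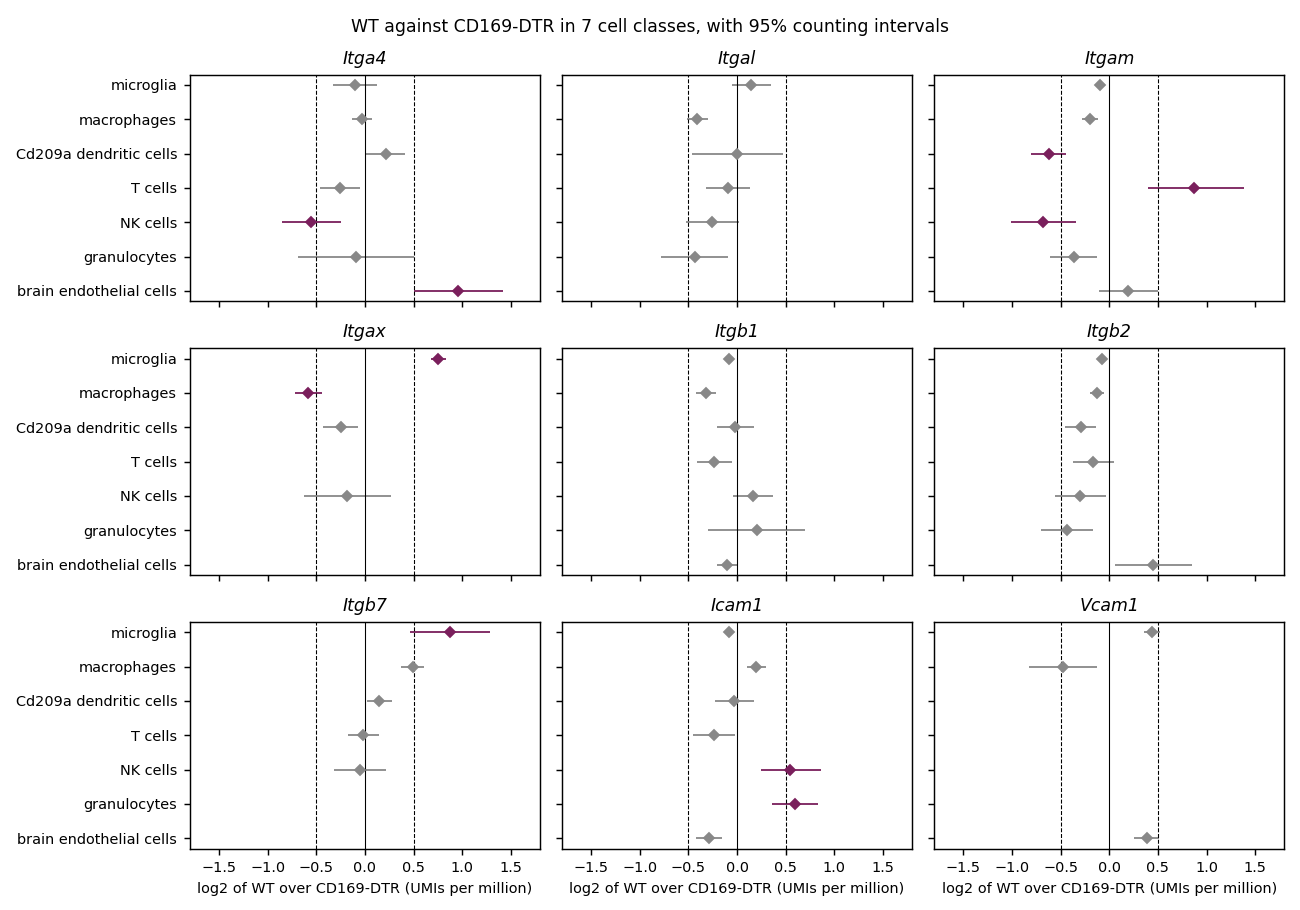
Log2 ratio of WT over CD169-DTR of each member with at least 100 UMIs in each of 7 classes, with exact 95% counting intervals; purple points are past the dashed lines at 0.5 and -0.5, grey points are not. Itgax lay past the fold toward WT in microglia (0.75) and toward CD169-DTR in macrophages (-0.58).

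In brain endothelial cells, which display the ligands, neither ligand was past the fold. Icam1 had a log2 ratio of -0.29 (-0.43 to -0.16) and Vcam1 of 0.38 (0.25 to 0.52). Without the highest doublet scores Icam1 reached the fold, at -0.50. Itga4 was the 1 of 6 members past the fold in the values as reported, higher in WT at 0.95 (0.50 to 1.42), where 2.99% of all genes were, against 2.2% in CD169-DTR. With the same weight per cell the Itga4 ratio was 0.58. Some of these barcodes held immune RNA: 69 of 402 WT and 31 of 278 CD169-DTR cells had a UMI of Ptprc, the gene of CD45, and summed NK cell markers were at 80.3 and 2.16 CPM. Of 8 such markers 7 were detected in WT endothelial cells (Klra4 at 0) and 3 in CD169-DTR (Klrb1c, Klra8, Klra4, Klre1 and Prf1 at 0), and T cell markers were at 61.3 and 6.49, with Cd3e, Cd3g and Trbc2 at 0 in CD169-DTR. Monocyte markers were at 293 and 24.7, with 8 of 8 detected in WT and all but Hp in CD169-DTR. The NK cell, T cell and monocyte lists were higher in WT, as was Itga4. Lists of other classes that held Itga4 were higher in CD169-DTR, with migratory dendritic cell markers at 275 and 301, B cell markers at 330 and 400 and pericyte markers at 226 and 257. The part of these lists was not tested. Split by Ptprc, a split chosen after seeing the values, the cells without it had an Itga4 ratio of 0.74 (0.22 to 1.27) on 100 and 47 UMIs, and a Vcam1 ratio of 0.55 (0.40 to 0.70). In cells with a Ptprc UMI the Itga4 ratio was 1.53 (0.50 to 2.73) on 55 and 9 UMIs. Their Vcam1 ratio had the other sign, at -0.20 (-0.46 to 0.07) on 330 and 179 UMIs. Itgb7 had 90 UMIs in WT endothelial cells and 3 in CD169-DTR, and 88 of the WT UMIs were in cells with a Ptprc UMI. Itgal had 37 and 5 UMIs, a log2 ratio of 2.37 (1.02 to 4.08), and Itgax 30 and 9, a log2 ratio of 1.22 (0.11 to 2.48). Of their WT UMIs, 33 and 28 were in cells with a Ptprc UMI. Itgb7, Itgal and Itgax had fewer than 100 UMIs over both libraries, so they were not among the members counted.

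Vcam1 was concentrated in few endothelial cells. A UMI was found in 82 of 402 WT and 53 of 278 CD169-DTR cells, and 49 and 27 cells with at least 5 held 94.6% and 93.9% of the Vcam1 UMIs. The most in 1 cell was 188 in WT and 93 in CD169-DTR. Nearly all were in the cluster led by Cldn5, Itm2a and Ly6c1, at 344 and 269 CPM, against 6.16 and 18.6 in the cluster led by Plvap, Igfbp3 and Plpp3. Cells with a Vcam1 UMI, a split chosen after seeing the values, held 408 CPM of Icam1 against 97.7 in cells without in WT, a log2 ratio of 2.06 (1.86 to 2.27), and 445 against 158 in CD169-DTR, a log2 ratio of 1.498 (1.30 to 1.70). Selp, P-selectin, on which leukocytes roll, had 110 UMIs in WT and 14 in CD169-DTR, and none were in cells without a Vcam1 UMI. Cells with a Vcam1 UMI were deeper, with medians of 16283 and 16500 UMIs against 7068.5 and 7611.0, and the part of depth was not tested.

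Of 40 other genes of leukocyte adhesion, 32 could be compared in microglia, of which 1 was past the fold toward WT and 2 toward CD169-DTR, where 2.18% and 2.07% of all genes were. The former was Madcam1, the ligand of Itga4 with Itgb7 (0.88, on 150 and 98 UMIs). The latter were Rasgrp2, which activates Rap1 upstream of integrins, and Fn1, fibronectin, at -1.42 (-1.52 to -1.32). Rasgrp2 was at -0.70 (-1.30 to -0.12) on only 39 and 76 UMIs. In macrophages 3 of 28 were past the fold toward WT, among them Itga1 (0.80) and Zyx (0.60), where 7.54% of all genes were. Toward CD169-DTR, with 6.51% of all genes, there were 6: Itga9 (-1.26), Itga6 (-0.84), Pecam1 (-0.60), F11r (-0.59), Spp1 (-0.55) and Itgb5 (-0.53). In brain endothelial cells 3 of 28 were past the fold toward WT and 1 toward CD169-DTR, beside 2.99% and 2.2% of all genes. The former included Selp, at 2.46 (1.65 to 3.38), with 46 of its 110 WT UMIs in 1 cell. In Cd209a dendritic cells 3 of 24 were past the fold toward WT and 6 toward CD169-DTR, beside 9.4% and 7.5% of all genes. In T cells 1 of 23 were past the fold toward WT and 5 toward CD169-DTR, beside 14.1% and 3.93% of all genes. In NK cells 1 of 17 were past the fold toward WT and 2 toward CD169-DTR, beside 9.43% and 5.38% of all genes. In granulocytes 2 of 14 were past the fold toward WT and 3 toward CD169-DTR, beside 14.7% and 14.7% of all genes.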

How the data were processed

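Droplet 3′ RNA counts of 2 libraries, 1 per group, were analysed. Per the labels and file headers, the authors ran Cell Ranger (software version 3.1.0 in the header) against mm10 and deposited raw UMI counts per gene and barcode, unfiltered. Here, barcodes of 1000 or more UMIs were kept if at most 17% of their UMIs were mitochondrial. Libraries were integrated and clustered in Seurat 5.3.0 (R 4.3.3; 2000 variable genes less the 4 members among them, 50 integration and 30 clustering dimensions, resolution 1), with no doublets removed. A cluster was named where at least 3 markers of a list, and 60% of it, were detected, and where its 10 leading genes held no more markers of another class than of its own. UMIs were summed per class and library in Python 3.11.15 (scipy 1.17.1), with exact Poisson, conditional binomial and Clopper-Pearson intervals. Cells were thinned to 4500 UMIs for shares. Free RNA was read from barcodes of 10 to 100 UMIs and from microglial markers in lymphocytes. The code was tested on simulated data.

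With 1 library per group no test between groups was possible. Depth ranged from 84065489 to 101808996 UMIs per library. The members and lists were chosen with earlier results of these data known. All 9 members were named. Of 41 other adhesion genes listed, 40 were measured and were named where past a log2 ratio of 0.5 in microglia or macrophages, or where they describe a class, and the 3 genes most alike in pattern were named for each member. Genes under these rules that are not named are not reported here. Alternatives changed the filters, doublets, integration, resolution, variable genes, free RNA, scaling, weighting, thresholds and thinning.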

Additional observations from a re-analysis of the deposited data

Results flagged for a closer look

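Itgax, Itgam and Itga4 moved past the fold in opposite directions in different classes. Differences between classes were not tested, since each group had 1 library. Itgax had a log2 ratio of WT over CD169-DTR of 0.75 in microglia and -0.58 in macrophages. Itgam was at 0.88 in T cells, -0.62 in Cd209a dendritic cells and -0.68 in NK cells. Itga4 was at 0.95 in brain endothelial cells and -0.55 in NK cells.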

How the results depend on the processing

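No paired analysis was possible because each group has 1 library. Over the 7 classes, 6 member ratios were past the fold toward WT and 4 toward CD169-DTR. With a minimum of 20 UMIs the count toward WT was 12, and at a log2 ratio of 1 it was 0 in both directions. The other alternatives gave 5 to 8 toward WT and 3 to 5 toward CD169-DTR. Of 689 recomputed class ratios, 661 stayed within the counting interval of the reported ratio, 28 moved outside it and none of those past the fold turned sign. The ratio stayed past the fold in all 13 alternatives for Itgax in microglia (0.60 to 0.80), Itgam in Cd209a dendritic cells (-0.94 to -0.52), Itgam in T cells (0.72 to 1.08) and Itga4 in endothelium (0.58 to 1.08). It fell inside the fold for Itgb7 in microglia with free RNA subtracted (0.49), Itgax in macrophages with clusters weighted alike (-0.37), Itga4 in NK cells without the highest doublet scores or with the same weight per cell (range -0.62 to -0.31), Itgam in NK cells without the top cell (-0.42), Icam1 in NK cells at 2000 UMIs (0.48) and Icam1 in granulocytes with the same weight per cell (0.39). In macrophages the ratio went past the fold for Itgal (-1.07, same weight per cell), Itgb7 (highest 0.54, median-ratio scaling) and Vcam1 (-0.82, without the highest doublet scores). In endothelium it did so for Itgb2 (highest 0.71, same weight per cell) and Icam1 (-0.50, without the highest doublet scores). The Itgb2 ratio in endothelium ranged from -0.12 to 0.71 over the alternatives, so its sign depended on the processing. Over the whole sort the Itga4 ratio turned from 0.83 to -0.0138 at WT class shares, and the Itgal ratio from 0.38 to -0.24. The Vcam1 ratio by Siglec1 UMI in CD169-DTR macrophages was 1.66 on 8 and 16 UMIs and -0.0245 without thinning. Of 392 recomputed shares 306 moved beyond their interval, since depth sets them. At resolution 0.5 and without integration, large clusters led by hemoglobin genes with microglial markers stayed unnamed. Counting the hemoglobin-led cluster with the microglia and leaving out shared barcodes were chosen after seeing the data and moved no class ratio beyond its interval.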

Other observations

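A cluster led by the mast cell proteases Mcpt2 and Cma1 (25 WT and 9 CD169-DTR cells) stayed unnamed and held Itgb7 at 438 (372 to 511) and 356 (238 to 511) CPM, with Itga4 at 175 and 85.9 on 64 and 7 UMIs. In choroid plexus cells Icam1 had 26 UMIs in WT and 120 in CD169-DTR, 8.29 and 38.9 CPM. In choroid plexus cells without a Ptprc UMI, a split chosen after seeing the values, it had 9 UMIs in WT and 88 in CD169-DTR, the latter in 22 of 153 cells.

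In the smaller dendritic cell classes, conventional dendritic cells 1 had Itgb2 at a log2 ratio of WT over CD169-DTR of -0.68 (-0.96 to -0.39) and Icam1 at 0.88 (0.34 to 1.46), from 189 and 32 cells. Plasmacytoid dendritic cells had Itgb1 at 1.09 (-0.07 to 2.57), Icam1 at 0.96 (0.09 to 1.99) and Itgb7 at -0.72 (-1.38 to 0.01), from 101 and 11 cells. Fibroblasts had Vcam1 at 1.10 (0.80 to 1.41), from 17 and 18 cells.

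Pearson correlation of log2(CPM + 10) over 28 points (14 classes in 2 libraries) was computed for 11223 genes as a description. Classes of the same library share its depth and free RNA. Among the 3 genes most like each member, those for Itga4 were Mndal, Ifi203 and Stk4 (r from 0.83 to 0.88), for Itgal Arhgap9 and Rac2 (r from 0.88 to 0.91), and for Itgam Fcgr3, Csf1r and Lpcat2 (r from 0.92 to 0.96). Those for Itgax were Ptpre, Tyrobp and Taf6l (r from 0.81 to 0.85), for Itgb1 Ccdc82 and Dnajc1 (r from 0.85 to 0.88), and for Itgb2 Cd53, Inpp5d and Ppp1r18 (r from 0.92 to 0.93). Those for Itgb7 were Rps27a, Runx3 and Rps9 (r from 0.91 to 0.92), for Icam1 Junb, Cggbp1 and Socs3 (r from 0.78 to 0.78), and for Vcam1 Ddah2, Myh10 and Spats2 (r from 0.93 to 0.96).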
